A study of Homo sapiens with 18 samples.

Results

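Krüppel-like factors (KLFs) are transcription factors with a run of C-terminal zinc fingers, and 10 of their genes are described here, KLF2, KLF3, KLF4, KLF5, KLF6, KLF7, KLF9, KLF10, KLF11 and KLF13. They were chosen by gene symbol from the 58302 genes of a table of read counts, which lists 18 KLF genes in all. The rule used no value of the table, but the choice was made with earlier results of these data known, and all 10 are expressed in these cells. The table covers 4 RNA-seq libraries of U87MG, an established human glioblastoma cell line, with 2 replicates per group. The labels do not say whether replicates came from separate cultures, so p-values measure the spread between these libraries, which may be technical. Erastin-treated cells received 10 μM Erastin for 72 h, and control cells were kept under normal growth conditions, for which the labels name no vehicle. Both groups shared the culture medium (DMEM with fetal bovine serum and penicillin/streptomycin) and no genetic change was introduced. Erastin blocks system Xc-, the transporter that imports cystine, and thereby induces ferroptosis, an iron-dependent form of cell death. The comparison addresses how the expression of these factors differs between ferroptotic and control glioblastoma cells. As a single line, U87MG represents 1 tumour.

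The libraries held between 29412656 and 31513519 counts on genes, and none stood apart in depth. SLC7A11, the transporter subunit of system Xc-, had 504 and 550 counts in control cells against 6535 and 6783 with Erastin. The proliferation gene MKI67 had 10919 and 10040 counts in control cells and 617 and 791 in Erastin-treated cells. The labelled tissue is brain, but the glial marker AQP4 had no count in any library and S100B had at most 2. SOX2 had at most 6, GFAP at most 81 and OLIG2 at most 88. NES had more, with 1277 and 972 counts in control cells and 105 and 77 in Erastin-treated cells. The mesenchymal markers VIM, CD44 and FN1 were abundant. The 10 glioma markers summed to 9143 and 9566 CPM (counts scaled to the depth of the library, with the TMM factors of edgeR) in control cells and to 3187 and 3423 CPM in Erastin-treated cells. FN1 carried most of that difference, with 151697 and 168464 counts in control cells and 14138 and 16332 in Erastin-treated cells. NES and CHI3L1 fell as well, with log2 fold changes of −3.62 and −2.26 (adjusted p = 3.97e-08 and 3.51e-09 from edgeR). VIM and CD44 fell less, with log2 fold changes of −0.60 and −0.36. Those of GFAP and OLIG2 were 0.79 and −0.40, with adjusted p values of 0.0696 and 0.305 from edgeR. The 6 markers of immune, endothelial, epithelial and neuronal cells summed to between 5.17 and 7.15 CPM in control cells and between 2.04 and 2.11 CPM in Erastin-treated cells, with the immune marker PTPRC and the endothelial marker CDH5 at 1 count or 0. In control cells most of that sum was PECAM1, with 138 and 188 counts against 31 and 33.

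KLFs bind GC-rich and CACCC sequences in promoters and enhancers, and the members differ in the partners that they recruit outside the zinc fingers. KLF2, KLF4, KLF5, KLF6 and KLF7 are mostly described as activators that can bind the acetyltransferases p300 and CBP. KLF9, KLF10, KLF11 and KLF13 bind the corepressor SIN3A, and KLF3 binds the corepressor CtBP. Several KLFs are known for slowing cell division and for responding quickly to growth factors, shear stress and hormones. Their transcripts are short-lived in many cells.

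Promoter sequences of RefSeq (GRCh38.p14) were at hand for 8 of the 10 members, and those of KLF2, KLF7 and KLF9, the members with a changed transcript level that have one, are shown so that their base composition can be compared. Each runs 5′ to 3′ on the strand of the gene, up to 250 bases before the annotated start nearest to the gene's first base in the deposited annotation, and bases inside that annotated gene were left out. Capitals mark CACCC boxes (CACCC on either strand), GC boxes (GGGCGG on either strand) and the MEF2 box (the consensus site of MEF2 factors), and adjoining boxes run together. KLF2 lies at chr19:16324576-16324816 on the plus strand, KLF7 at chr2:207167268-207167496 on the minus strand and KLF9 at chr9:70414658-70414907 on the minus strand.
KLF2: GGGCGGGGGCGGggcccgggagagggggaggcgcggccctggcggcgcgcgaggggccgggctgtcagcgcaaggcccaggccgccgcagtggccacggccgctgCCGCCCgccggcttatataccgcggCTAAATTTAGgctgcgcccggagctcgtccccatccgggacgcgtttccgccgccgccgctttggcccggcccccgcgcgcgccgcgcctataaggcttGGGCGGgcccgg
KLF7: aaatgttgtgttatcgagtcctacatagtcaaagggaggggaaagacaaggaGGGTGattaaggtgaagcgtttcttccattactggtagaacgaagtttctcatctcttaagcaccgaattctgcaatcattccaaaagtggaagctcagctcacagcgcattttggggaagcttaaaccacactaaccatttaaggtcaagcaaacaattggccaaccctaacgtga
KLF9: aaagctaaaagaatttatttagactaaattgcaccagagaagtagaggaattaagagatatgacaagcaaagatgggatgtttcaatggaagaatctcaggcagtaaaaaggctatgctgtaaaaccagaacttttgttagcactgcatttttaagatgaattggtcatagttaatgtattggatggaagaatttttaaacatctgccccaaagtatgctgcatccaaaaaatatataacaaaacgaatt

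Over the full 250 bases, G and C made up 80.0% of the KLF2 window, 43.2% of the KLF7 window and 32.4% of the KLF9 window. At the other annotated starts of KLF7 they made up 41.6%, 58.0% and 72.0%, and the window at 72.0% held 4 GC boxes. The windows nearest to the first base of KLF4, KLF6, KLF11 and KLF13 had 69.2%, 72.4%, 78.8% and 78.8%, and that of KLF5 had 40.8%. Base composition was not tested against the changes. The KLF2 window held 4 GC boxes and 1 MEF2 box, which began 120 bases before the start. MEF2 factors act downstream of the kinase ERK5 and are known activators of KLF2 in endothelial cells. Among the 13 windows of members at all annotated starts, only this KLF2 window held a MEF2 box, and 2.8% of the 35116 windows of all genes did. GC boxes were present in 5 of the 8 windows nearest to the gene's first base, in 8 of all 13 member windows and in 42.6% of all windows. CACCC boxes were present in 3 of 8, in 6 of 13 and in 54.7%. The windows of all genes were not limited to 1 per gene, so the 13 are the closer match. None of the 13 windows held the core of the antioxidant response element (TGACNNNGC), which 10.9% of all windows held, or the composite element bound by ATF4 (TGATGNAA), which 3.14% held. KLF7 has 4 annotated starts, and counts per gene do not tell which was used.

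KLF6 was the most abundant member in control cells. Per kilobase of annotated exons, its level was 28.4 ± 0.844 CPM per kb (SD, n = 2), higher than that of 90.9% of the 16751 genes tested. KLF10 followed with 12.5 ± 0.794 CPM per kb (SD, n = 2) and KLF7 with 12.2 ± 0.168 CPM per kb (SD, n = 2), and the libraries of this pair overlapped. Below them, in the same unit, came KLF3 (8.90 ± 0.0413), KLF2 (4.52 ± 0.301), KLF9 (3.92 ± 0.231), KLF4 (3.15 ± 0.328), KLF5 (2.51 ± 0.131), KLF11 (1.04 ± 0.157) and KLF13 (0.482 ± 0.0824). Each of these neighbours was separated from the next in both control libraries (SD, n = 2).
In Erastin-treated cells KLF6 and KLF10 were still the most abundant, and KLF2 came next, with 10.8 ± 1.00 CPM per kb (SD, n = 2). KLF7, at 7.08 ± 0.727, could not be told apart from KLF3, at 6.98 ± 0.0573 (SD, n = 2). KLF5, KLF9 and KLF4 lay between 2.49 and 2.75 CPM per kb, and the libraries of each neighbouring pair among KLF5 and KLF9 and among KLF9 and KLF4 overlapped. All 10 members passed the low-count filter, with at least 98 counts in every library. In bulk RNA, fewer cells that express a gene and less of its RNA per cell cannot be told apart.

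**Figure D1:**
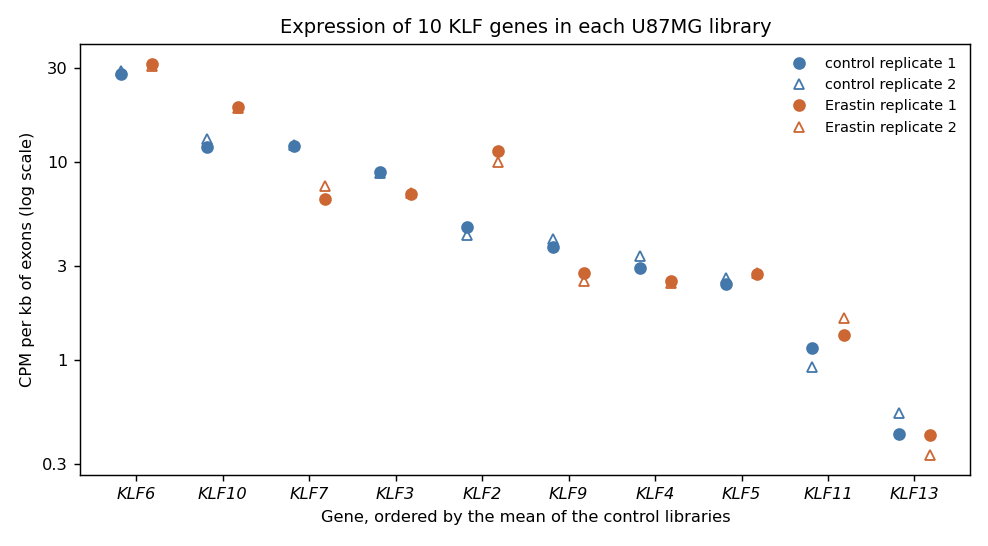
Level of each KLF gene in each library, in CPM per kb of exons on a log axis, with genes ordered by the control mean; circles are replicate 1 and triangles replicate 2 of control (blue) and Erastin-treated cells (orange). KLF2 moves from about 4.52 to 10.8 CPM per kb, KLF10 from 12.5 to 19.0, and KLF7 from 12.2 to 7.08.

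Under Erastin, KLF2 and KLF10 rose and KLF7, KLF9 and KLF3 fell, while KLF4, KLF5, KLF6, KLF11 and KLF13 did not pass the test. Thus 2 of 10 members were higher at an adjusted p under 0.05 and 3 of 10 lower (edgeR's quasi-likelihood test, Benjamini-Hochberg over all genes tested), where 23.2% of all tested genes were higher and 23.7% lower. In either direction 5 of 10 passed, against 47.0% of all tested genes. Only KLF2 also reached a log2 fold change of 1, so 1 of 10 was upregulated, against 6.24% of all tested genes. None was downregulated, with a log2 fold change of −1 or less, against 9.34%. DESeq2 called 0 members downregulated as well, and at an unadjusted p under 0.05 the lower members were the same 3. The median log2 fold change of the members was −0.10, and that of all tested genes −0.0026. In size, the median was 0.45 for the members and 0.43 for all tested genes. For every member both Erastin libraries lay on the same side of both control libraries. They lay above in 5 members, against 36.7% of all tested genes, and below in 5, against 36.9%, which makes 73.6% of all genes in either direction.

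**Figure D2:**
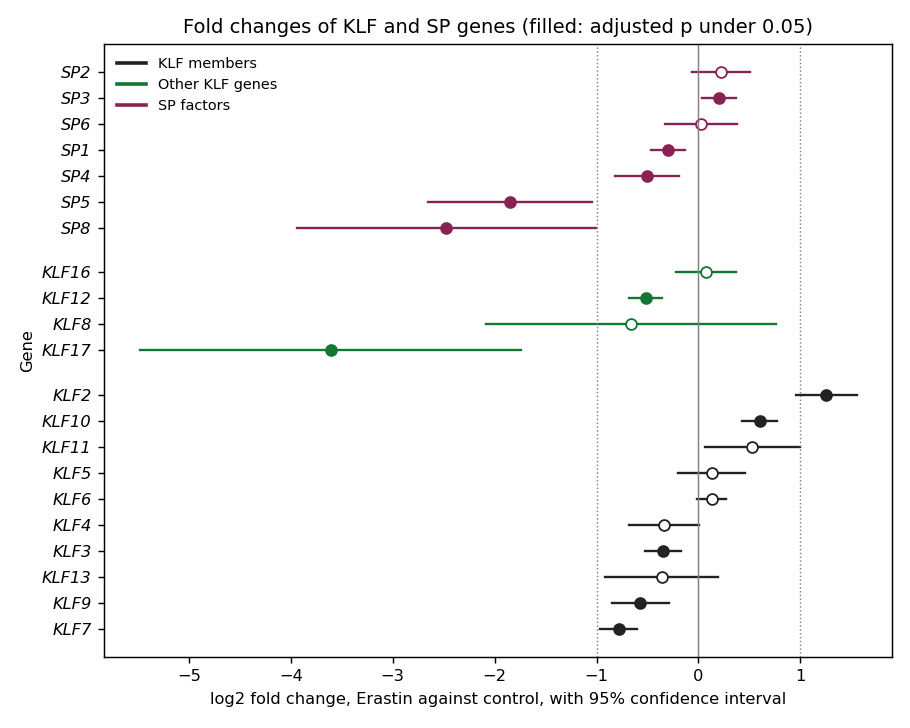
Log2 fold change (Erastin against control) with its 95% confidence interval from edgeR for the 10 KLF genes (black), the 4 other tested KLF genes (green) and the 7 tested SP genes (purple); filled points had an adjusted p under 0.05, and dotted lines mark log2 fold changes of −1 and 1. KLF2 is the only gene right of 1, at 1.25, and KLF17, SP8 and SP5 lie left of −1.

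KLF2, known for keeping endothelial and T cells quiescent, had the largest change among the members. Its gene (ENSG00000127528) lies on chromosome 19 from 16324817 to 16327874 of GRCh38. The control libraries held 9.55 and 8.69 CPM of KLF2 and the Erastin libraries 23.2 and 20.3 CPM, so that the lower Erastin library held more than 2 times the higher control library in counts (638 against 292). The log2 fold change was 1.25 (standard error 0.137, 95% confidence interval 0.95 to 1.55, adjusted p = 1.49e-05 from edgeR), a 2.38-fold rise. Of all tested genes, 6.20% rose by more. Tested against a log2 fold change of 1 itself (glmTreat), the rise did not pass, and its confidence interval reaches below 1. The endothelial marker CDH5 was at 1 count or 0 in every library, and PECAM1 was lower with Erastin. KLF4, its near relative and a factor used to reprogram cells to pluripotency, did not rise with it. The values of KLF4 were 10.7 and 12.4 CPM in control cells and 9.19 and 9.04 CPM in Erastin-treated cells. Both Erastin libraries were lower, but the log2 fold change of −0.34 had a confidence interval from −0.68 to 0.0044 and an adjusted p of 0.0981 from edgeR. Per kilobase, KLF2 was 1.62 and 1.27 times as abundant as KLF4 in control cells against 4.57 and 4.07 times with Erastin. The mean log2 ratio of this pair was 0.52 ± 0.25 in control and 2.11 ± 0.12 in Erastin-treated cells (SD, n = 2). The ratios of the groups did not overlap, and their difference was not tested.

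KLF6, KLF7 and KLF5 are the other activator-type members. KLF7 (ENSG00000118263, chromosome 2, 207074137 to 207167267), which supports axon growth in neurons, had the largest fall among the members. It had 112 and 114 CPM in control cells against 60.8 and 70.3 CPM with Erastin. The log2 fold change was −0.78 (standard error 0.0818, confidence interval −0.96 to −0.60, adjusted p = 1.04e-05 from edgeR). KLF7-IT1, a transcript of a KLF7 intron that shares no exon base with it, had 17 and 12 counts in control cells and 2 and 4 in Erastin-treated cells. KLF6 (ENSG00000067082, chromosome 10), a growth suppressor that can activate CDKN1A, is closest to KLF7 in the family. It had 171 and 178 CPM in control cells and 194 and 188 CPM in Erastin-treated cells. Its log2 fold change of 0.13 did not pass the test (confidence interval −0.015 to 0.27, adjusted p = 0.131 from edgeR), and with scaling by library totals alone it was 0.18 with an adjusted p of 0.0452. Per kilobase, KLF6 was 2.31 and 2.36 times as abundant as KLF7 in control cells against 4.81 and 4.03 times with Erastin. KLF5 (ENSG00000102554, chromosome 13), which promotes division in epithelium and smooth muscle, had 9.42 and 10.1 CPM in control cells and 10.7 and 10.8 CPM in Erastin-treated cells. Its log2 fold change was 0.13 (confidence interval −0.20 to 0.46, adjusted p = 0.512 from edgeR).

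Of the SIN3-binding members, KLF10 rose and KLF9 fell. KLF10 (ENSG00000155090, chromosome 8, 102648779 to 102655902) is induced early by TGF-β and restrains growth. Its values were 47.8 and 52.3 CPM in control cells against 76.4 and 75.5 CPM with Erastin, which lay close together and well above both controls. The log2 fold change was 0.60 (standard error 0.0794, confidence interval 0.43 to 0.77, adjusted p = 6.87e-05 from edgeR), a 1.52-fold rise. KLF11 (ENSG00000172059, chromosome 2), the nearest relative of KLF10, had 5.27 and 4.25 CPM in control cells and 6.19 and 7.54 CPM in Erastin-treated cells. Its log2 fold change of 0.53 was similar in size, but its standard error was 0.213. The unadjusted p was 0.0296 and the adjusted p 0.0608 from edgeR. With control replicate 1 left out the log2 fold change of KLF11 was 0.69 with an adjusted p of 0.0197, and with library totals it was 0.58 with an adjusted p of 0.0398. KLF10 was 10.4 and 14.1 times as abundant per kilobase as KLF11 in control cells against 14.2 and 11.5 times with Erastin, so that the ratios of the groups overlapped.

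KLF9 (ENSG00000119138, chromosome 9, 70384597 to 70414624), a target of glucocorticoid and thyroid hormone receptors, had 19.4 and 21.1 CPM in control cells against 14.3 and 13.0 CPM with Erastin. The log2 fold change was −0.57 (standard error 0.127, confidence interval −0.85 to −0.29, adjusted p = 0.00302 from edgeR). KLF13 (ENSG00000169926, chromosome 15), known as an activator of the chemokine CCL5 in T cells, was the least abundant member. It had 3.99 and 5.09 CPM in control cells and 3.95 and 3.12 CPM in Erastin-treated cells, and the higher Erastin library lay just below the lower control library. The log2 fold change was −0.36 (confidence interval −0.91 to 0.19, adjusted p = 0.266 from edgeR). The interval of KLF13 includes the fall of KLF9. KLF9 was between 7.55 and 8.85 times as abundant per kilobase as KLF13 in control cells and between 6.61 and 7.57 times in Erastin-treated cells, and these ranges overlapped.

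KLF3 (ENSG00000109787, chromosome 4, 38664196 to 38701042), a CtBP-dependent repressor, fell by a smaller amount. Its replicates agreed closely, at 56.3 and 55.9 CPM in control cells against 43.7 and 44.2 CPM with Erastin. The log2 fold change was −0.35 (standard error 0.0806, confidence interval −0.53 to −0.17, adjusted p = 0.00364 from edgeR). KLF12, another CtBP-binding repressor that is not among the 10 members, fell as well. It had 3192 and 3323 counts in control cells and 2109 and 2422 in Erastin-treated cells, a log2 fold change of −0.52 (adjusted p = 1.25e-04 from edgeR). KLF3 was 0.935 and 0.906 times as abundant per kilobase as KLF12 in control cells against 1.08 and 0.995 times with Erastin. The antisense gene KLF3-AS1 shares 266 exon bases with KLF3, which are 4.22% of its exon length, and had at most 7 counts in a library. An antisense gene that shares 416 exon bases with KLF11 had no count. Of the other members, none shared exon bases with another gene, and the 10 annotated KLF pseudogenes had 3 counts in all.

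Summed per kilobase, the 10 members amounted to 76.2 and 79.1 CPM per kb in control cells against 85.4 and 83.9 with Erastin. The means were 77.6 ± 2.08 and 84.6 ± 1.11 CPM per kb (SD, n = 2), and the groups did not overlap. This pool is that of the 10 members and not of all KLF genes. It leaves out KLF12, with means of 9.68 in control and 6.76 CPM per kb in Erastin-treated cells. KLF16, with 10.3 and 10.9 CPM per kb, is left out as well. KLF6 kept its place, with 36.6% ± 0.106 of the pool in control and 36.7% ± 0.317 in Erastin-treated cells (SD, n = 2). The share of KLF2 went from 5.83% ± 0.544 to 12.7% ± 1.02 and that of KLF10 from 16.1% ± 0.591 to 22.4% ± 0.0997 (SD, n = 2). KLF7 went from 15.7% ± 0.203 to 8.37% ± 0.969, and KLF3 from 11.5% ± 0.361 to 8.25% ± 0.176 (SD, n = 2). The 5 activator-type members together held 65.6% and 65.2% in control cells against 64.2% and 63.8% with Erastin. The 4 SIN3-binding members held 22.7% and 23.5% against 27.7% and 27.8%, but they did not move together. Besides KLF10, KLF11 went up, from 1.34% ± 0.238 to 1.77% ± 0.270 (SD, n = 2). KLF9 went down from 5.04% ± 0.162 to 3.12% ± 0.178, and KLF13 from 0.620% ± 0.0895 to 0.443% ± 0.0675 (SD, n = 2). Shares add to 100% within a library, so that a rise of one lowers the others, and no test was run on them.

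**Figure D3:**
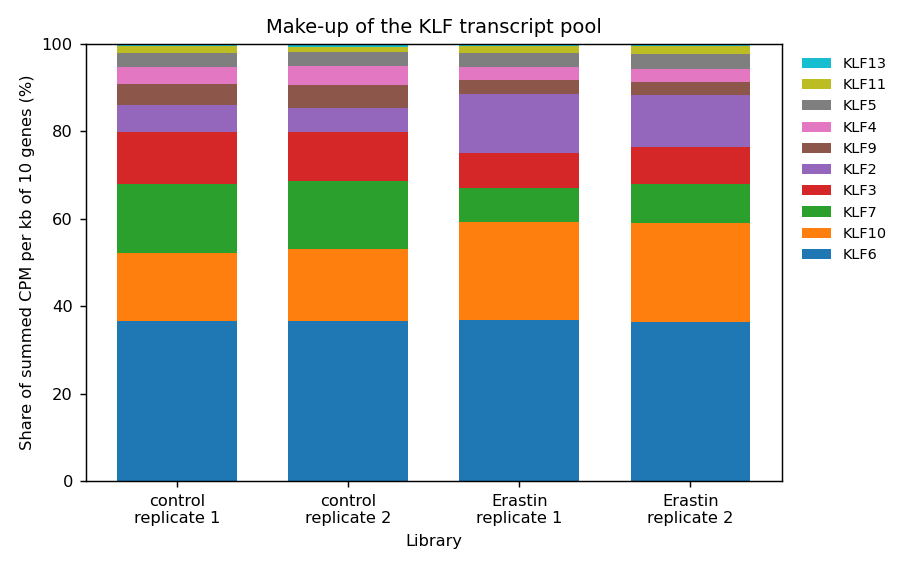
Share of each KLF gene in the summed CPM per kb of the 10 genes, in percent, as stacked bars for the 4 libraries. KLF6 (blue) holds between 36.5% and 37.0% in every library, KLF2 (violet) widens from between 5.44% and 6.21% to between 12.0% and 13.4%, and KLF7 (green) narrows, while KLF13 is too small to be seen in most bars.

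Of the 8 KLF genes outside the members, KLF8, KLF12, KLF16 and KLF17 could be tested, and KLF1, KLF14, KLF15 and KLF18 had no count in any library. The median log2 fold change of the 4 was −0.59, and 2 of them, KLF12 and KLF17, were lower, against 23.7% of all tested genes. KLF17 had 32 and 44 counts in control cells against 0 and 6 with Erastin, a log2 fold change of −3.61 with a standard error of 0.854 (adjusted p = 0.00439 from edgeR). These few counts make its size uncertain. KLF16 had 1063 and 820 counts in control cells and 1025 and 944 in Erastin-treated cells, and KLF8 had at most 44 counts, and the groups overlapped for both.
The SP factors bind the same GC-rich sites as KLFs. Of the 7 SP genes tested, 1 was higher and 4 were lower at an adjusted p under 0.05, against 23.2% and 23.7% of all tested genes. Of the 4, 2 were downregulated, against 9.34% of all tested genes, and the median log2 fold change of the 7 was −0.30. SP1, the ubiquitous member, fell by 0.30 on the log2 scale (adjusted p = 0.00720 from edgeR), and SP3 rose by 0.21 (adjusted p = 0.0439 from edgeR). SP5 had 92 and 78 counts in control cells and 20 and 27 in Erastin-treated cells, and SP8 had 33 and 24 against 6 and 4. Their log2 fold changes were −1.85 and −2.47 (adjusted p = 0.00143 and 0.00952 from edgeR). The few counts of SP8 make its size uncertain (standard error 0.668, confidence interval −3.94 to −1.01). SP4 fell by 0.50 on the log2 scale (adjusted p = 0.0115 from edgeR). SP2 and SP6 had log2 fold changes of 0.23 and 0.03, with adjusted p values of 0.180 and 0.914 from edgeR.

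Among 12 genes of KLF cofactors, 4 were higher and 4 lower at an adjusted p under 0.05, against 23.2% and 23.7% of all tested genes, and log2 fold changes lay between −0.72 and 0.87, with a median of −0.014. SIN3A, the corepressor of the KLF9 and KLF10 group, fell by 0.72 on the log2 scale (2524 and 2433 counts in control against 1437 and 1551, adjusted p = 1.13e-05 from edgeR). SIN3B, also in this list but chosen after its value was seen, rose by 0.39 (adjusted p = 7.72e-04 from edgeR). EP300, which encodes p300, rose by 0.78 (2788 and 2745 against 4446 and 5011 counts, adjusted p = 3.05e-06 from edgeR). CREBBP, which encodes the related CBP and was chosen after its value was seen, rose by 0.87 (adjusted p = 3.30e-06 from edgeR). The cofactor gene KAT2B, chosen in the same way, fell by 0.57 (adjusted p = 2.72e-04 from edgeR). CTBP1 and CTBP2 had log2 fold changes of −0.14 and 0.10, with adjusted p values of 0.165 and 0.363 from edgeR.

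Among 14 upstream regulators, 9 were higher and 3 lower at an adjusted p under 0.05, against 23.2% and 23.7% of all tested genes, and the median log2 fold change was 0.29. MAPK7, which encodes ERK5, rose by 0.23 on the log2 scale (adjusted p = 0.0453 from edgeR). The MEF2 genes, chosen after their values were seen, did not move together. MEF2A and MEF2D rose by 0.36 and 0.27, and MEF2C had 236 and 213 counts in control and 99 and 143 in Erastin-treated cells, a log2 fold change of −0.89 (adjusted p = 0.00114, 0.0174 and 0.00618 from edgeR). In the TGF-β pathway, which induces KLF10, the transducer SMAD3 was the 1 downregulated gene of the list, with 5031 and 5099 counts against 1822 and 2081 and a log2 fold change of −1.37 (adjusted p = 3.44e-08 from edgeR). The receptor genes TGFBR1 and TGFBR2, also chosen after their values were seen, went opposite ways, with log2 fold changes of 0.73 and −0.73 (adjusted p = 2.68e-06 and 4.31e-06 from edgeR). NFE2L2, which encodes the oxidative stress factor NRF2, rose by 0.74 (adjusted p = 2.16e-05 from edgeR). NRF2 is a known activator of KLF9, which fell, and whether NRF2 acted on KLF9 here was not tested.

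Of 8 ubiquitin ligases that mark KLF proteins for degradation, 3 were higher and 3 lower at an adjusted p under 0.05, against 23.2% and 23.7% of all tested genes, and log2 fold changes lay between −0.69 and 0.66, with a median of 0.20. Of 23 genes known as targets of KLFs, 18 could be tested. Among them 6 were higher and 5 lower at an adjusted p under 0.05, against 23.2% and 23.7% of all tested genes. Of these, 2 were upregulated and 4 downregulated, against 6.24% and 9.34% of all tested genes, and the median log2 fold change of the 18 was 0.16. CDKN1A, the cell cycle inhibitor that KLF4 and KLF6 can activate, had 6861 and 6426 counts in control cells and 34400 and 36807 in Erastin-treated cells, a log2 fold change of 2.43 (adjusted p = 3.98e-10 from edgeR). CDKN1A is also a main target of p53. NOS3, an endothelial target of KLF2, had 16 and 24 counts against 58 and 43, a log2 fold change of 1.34 (adjusted p = 0.0294 from edgeR). With so few counts its size is uncertain (standard error 0.454, confidence interval 0.35 to 2.34). THBD and S1PR1, other endothelial targets of KLF2 chosen after their values were seen, had log2 fold changes of −0.38 and 0.32 with adjusted p values of 0.154 and 0.0984 from edgeR. The mitotic cyclin gene CCNB1, the collagen gene COL1A1, the monoamine oxidase gene MAOA and ENG, a TGF-β coreceptor gene, fell, with log2 fold changes of −3.82, −1.99, −1.18 and −1.12 (adjusted p between 1.98e-10 and 9.49e-06 from edgeR). SMAD7, a TGF-β pathway inhibitor that KLF10 represses, rose by 0.30 (adjusted p = 0.0481 from edgeR). TXNRD2, a mitochondrial thioredoxin reductase gene that KLF9 represses, rose by 0.80, from 770 and 599 counts to 1310 and 1050 (adjusted p = 0.00106 from edgeR). These genes answer to many factors besides KLFs, and whether the KLFs took part was not tested.

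**Figure D4:**
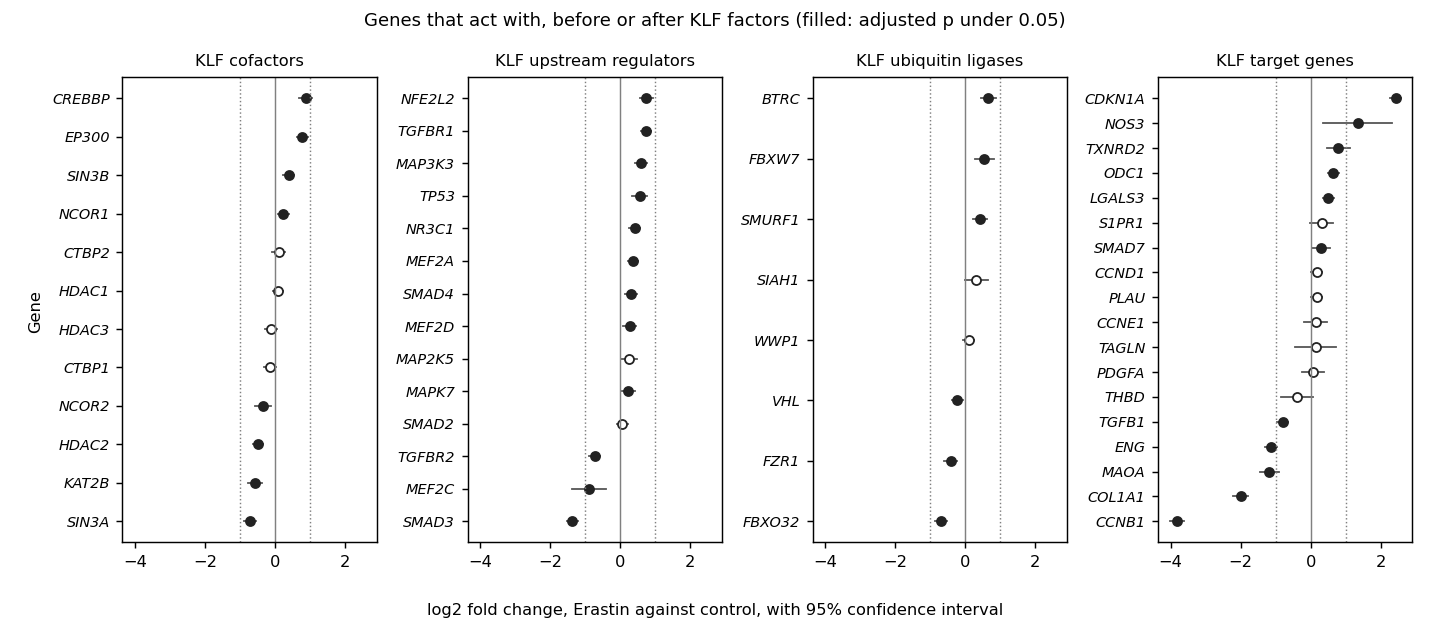
Log2 fold change (Erastin against control) with its 95% confidence interval from edgeR for the tested genes of 4 lists, cofactors, upstream regulators, ubiquitin ligases and target genes of KLFs; filled points had an adjusted p under 0.05 and dotted lines mark −1 and 1. The cofactors lie between −0.72 and 0.87, and the target genes spread from −3.82 to 2.43.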

How the data were processed

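Total RNA of U87MG cells was sequenced in 2 control and 2 Erastin libraries. The authors aligned reads with Hisat2 and deposited raw counts of reads per gene, which per the file header were made by featureCounts 2.0.3 (2.0.4 in the submitters' processing notes, htseq-count in the methods) with the Ensembl release 90 annotation of GRCh38. Estimated counts would hold decimals, and 0 of the deposited values did. Strand was not used, both reads of a pair were counted, and reads on several genes or places were left out. Symbols were joined by Ensembl identifier.

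Libraries were grouped by their labels. In R 4.3.3, edgeR 4.0.16 filtered genes (filterByExpr, minimum count 10), which left 16751, scaled them by TMM and compared the groups with the quasi-likelihood test without a block, two-sided, with Benjamini-Hochberg adjustment. The thresholds of the study were used, an adjusted p under 0.05 with a log2 fold change of 1 or more (upregulated) or −1 or less (downregulated). A standard error is the log2 fold change divided by the root of F. Levels compared between genes were divided by the exon length in the table. The scripts were tested on simulated data. With 2 libraries per group, 0.333 is the smallest two-sided p of an exact permutation test. Alternatives were DESeq2 1.42.0, RLE factors, library totals, other count filters, a replicate block, halved counts (one per read pair), glmTreat, and each library left out.

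All 10 members are named. Of the lists, written from general knowledge, the rule named the tested KLF and SP genes, the upregulated or downregulated genes and 9 defining genes, and other genes are said in the text to be chosen after their values were seen. Members and lists were chosen with earlier results of these data known. Intervals cover the spread between these libraries, since reads without molecular identifiers are not independent molecules. ChIP-seq and HiChIP data were not analysed here.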

Additional observations from a re-analysis of the deposited data

How the results depend on the processing

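Under RLE factors, both count filters, DESeq2, halved counts and the replicate block, 2 members were higher and 3 lower at an adjusted p under 0.05 and KLF2 alone was upregulated. With library totals, which moved the median of all genes to 0.047, 4 members were higher, since KLF6 (0.18) and KLF11 (0.58) passed as well. With glmTreat 0 members were upregulated, the called genes of the other KLF, SP, cofactor, regulator, ligase and target lists numbered 5 in place of 10, and all genes called, a count added after seeing the data, numbered 377 up and 748 down in place of 1046 and 1564. With each library left out in turn, 2 to 3 members were higher and 3 lower, and the log2 fold change of KLF11 ran from 0.37 to 0.69, that of KLF13 from −0.54 to −0.18 and that of KLF5 from 0.08 to 0.18, none of these 3 called with all libraries. The called KLF2 ran from 1.15 to 1.35 and KLF7 from −0.89 to −0.68. The lone library of a group was then assumed to vary like the other group. No member changed direction under any of these alternatives, and shares of the pool do not depend on the scaling. The labels number the replicates without naming a pairing, and deviations of same-numbered libraries correlated at 0.0338 across genes. With the replicate block the 10 members gave the same counts (2 higher, 3 lower) and the lists again 10 called genes. The called genes of the lists numbered 9 with DESeq2 and 8 with a filter of at least 10 counts in every library. At 98 to 237 counts per library, KLF11 and KLF13 had standard errors of 0.213 and 0.252.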
